A study of Mus musculus with 30 samples.

Results

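Gene expression in peripheral blood mononuclear cells (PBMC, the monocytes and lymphocytes of blood) was compared between mice injected with oleic acid (OA) and mice injected with physiological serum, 24 h after injection. The comparison takes the arrays that the labels give as OA at 24 h (3 arrays) and serum at 24 h (2 arrays), 5 of the 30 arrays of the series. The OA mice were female C57BL/6 mice of 6 weeks that received 1.2 µl of OA per g of body weight, in 200 µl, through the tail vein under xylazine and ketamine. The serum mice were of the same sex, strain and age and received 200 µl of physiological serum by the same route under the same anaesthesia. Blood (200 to 900 µl) was taken into EDTA by exsanguination, PBMC were separated on Ficoll of density 1.084, and 200 ng of RNA was labelled for a 1-colour Agilent mouse array. Each array was taken as 1 mouse, as the series' design text counts 30 mice, and no group without an injection was analysed here. The other 25 arrays cover 1, 1.5, 3, 4 and 18 h (14 OA and 11 serum arrays) and are used only to show where the 24 h arrays stood.

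Intravenous OA is carried to the lung, where it injures capillary endothelium and alveolar epithelium, and it is used in animals as a model of acute lung injury. Mouse blood holds classical monocytes, which leave the marrow and enter inflamed tissue through the chemokine receptor CCR2, and patrolling monocytes, which crawl along vessel walls, carry much CX3CR1 and need the nuclear receptor NR4A1. Both subsets depend on CSF1R, the receptor of the macrophage growth factor CSF1.

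Levels are given as log2 intensity minus the array's 75th percentile over its non-control probes, so a level of 0 is the signal of that percentile, and a level of 1 probe is never set against that of another. A gene was tested where a probe was well above background on all 5 arrays of 24 h. This left 12602 genes, of which 9045 have a gene symbol and 1380 are long intergenic RNAs. A gene was called where the Benjamini-Hochberg adjusted p of limma's moderated test was under 0.05.

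Serum replicate 1 stood apart before any comparison was made. Its correlations with the 3 OA arrays of 24 h were 0.867, 0.826 and 0.865, and that with serum replicate 2 was 0.901. The OA arrays correlated with each other at 0.970, 0.977 and 0.980, and with serum replicate 2 at 0.961, 0.967 and 0.964. Serum replicate 2 therefore lay closer to the OA arrays than to its own replicate. The median correlation with the other 29 arrays was 0.960, 0.967 and 0.968 for OA and 0.867 and 0.961 for serum, where the 25 arrays of other times had 0.925 to 0.968. The signal of long intergenic RNA probes, relative to probes detected on every array, was −6.86, −6.46 and −6.08 in OA and −3.26 and −5.21 in serum, where the other 25 arrays ran from −6.83 to −3.22 with a median of −5.83. The 75th percentile of the intensity was 151, 133 and 85.7 in OA and 47.2 and 69.7 in serum. The OA arrays lay on slides 5, 3 and 2, the first of them scanned on day 2, and both serum arrays on slide 1, so no slide held both groups and slide and group cannot be told apart within 24 h.

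**Figure D1:**
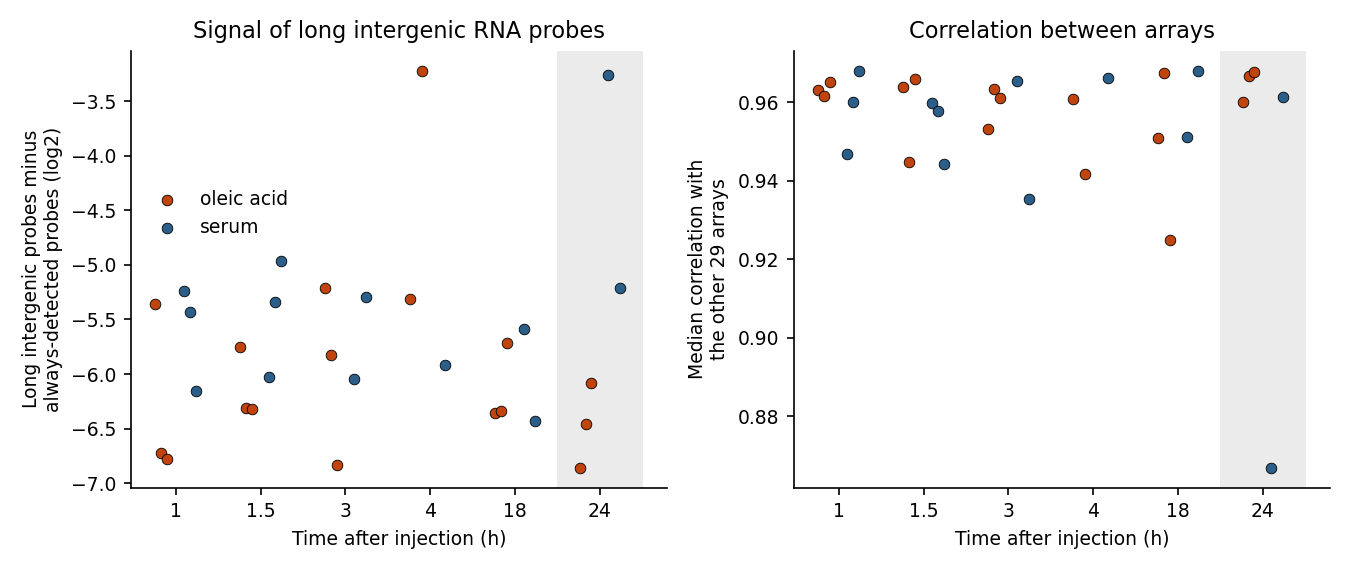
Signal of long intergenic RNA probes relative to always-detected probes (left, log2) and median correlation of each array with the other 29 (right), by time after injection in hours, with OA left of serum and the 24 h arrays shaded. Each point is 1 array. Serum replicate 1 of 24 h has the lowest correlation (0.867) and, beside 1 OA array of 4 h, the highest intergenic signal.

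The labelled cell type was checked on marker lists. All 14 B cell genes on the array, 15 of 16 T cell genes, 12 of 14 natural killer and cytotoxic genes and 11 of 12 classical monocyte genes were well above background on all 5 arrays. So were 16 of 17 mature neutrophil genes, 15 of 16 platelet genes and 15 of 17 erythroid genes, which belong to cells that a Ficoll layer should mostly leave out. Hba-a1, an alpha globin of red cells, had levels of 12.02, 11.62 and 12.58 in OA and 13.23 and 12.41 in serum. In RNA of mixed cells, fewer cells of a type and less RNA per cell cannot be told apart.

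Of the 12602 genes, 2587 (20.5%) were higher after OA and 365 (2.9%) were lower. At an unadjusted p under 0.05 these were 4725 (37.5%) and 910 (7.22%). The median difference over all genes was 0.56 log2, against which each gene's difference is to be read. It was 0.66 over genes with a symbol, of which 24.1% were called higher and 1.91% lower. Scaled instead to the median of always-detected probes, the all-gene median was 0.05, and 704 genes (5.59%) were higher and 675 (5.36%) lower. The share of higher genes among those called was 87.6% with the 75th percentile and 51.1% with the median. These counts depended on single arrays. Leaving out OA replicate 1, 2 or 3 left 49, 1 and 2 genes called. Without serum replicate 1 the all-gene median was 0.11, no gene was called higher and 1 lower (0.00794%), and limma gave 325 genes (2.58%) higher and 296 (2.35%) lower at an unadjusted p under 0.05. Of the 2587 genes called higher with all arrays, 2582 still lay on the same side of serum replicate 2, with a median difference of 0.55 against a median of 1.94 against serum replicate 1. For the 365 genes called lower, 362 kept the side, with medians of −1.22 against serum replicate 2 and −1.91 against serum replicate 1. Serum replicate 2 was itself used in making these calls, so the side kept is no separate support for them. Of the 74 genes called that were followed one by one, none passed without serum replicate 1. Leaving out serum replicate 2 instead, with replicate 1 alone assumed to vary like the other groups, gave 6191 genes higher (49.1%) and 713 lower (5.66%). With slide as a block 1 gene was lower (0.00794%) and none higher, with 2001 higher at an unadjusted p under 0.05. An exact permutation test over 3 and 2 arrays cannot give a two-sided p below 0.2 when, as here, the one-sided p is doubled, and this was the value of each of the 20 genes of smallest p.

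**Figure D2:**
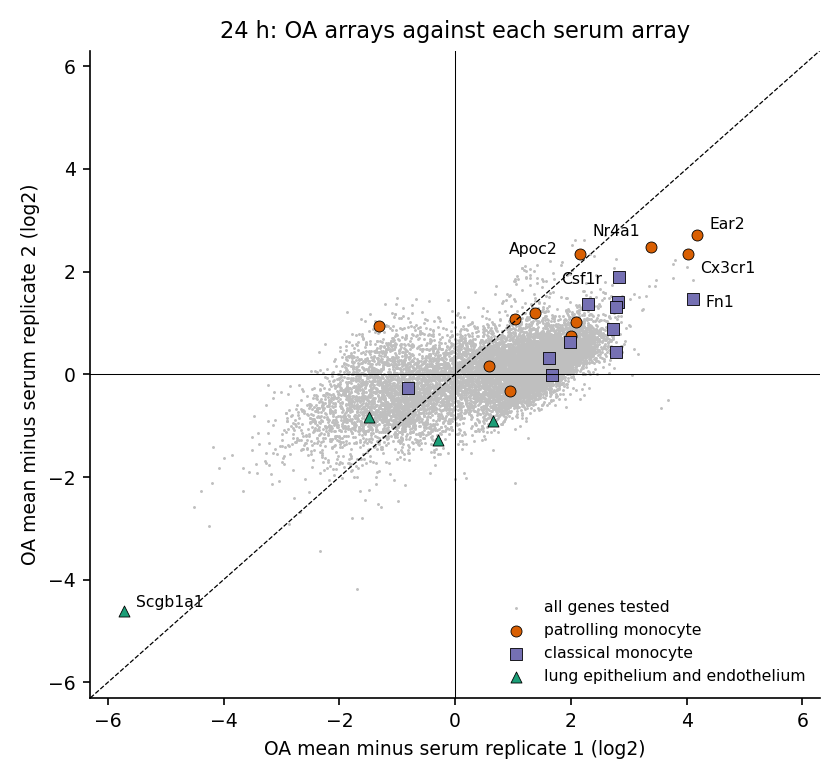
Mean of the 3 OA arrays minus serum replicate 1 (x axis, log2) and minus serum replicate 2 (y axis, log2) for the 12602 genes tested, with monocyte and lung lists coloured and the dashed line marking equal differences. Most genes spread along the x axis, while some patrolling monocyte genes such as Ear2 and Nr4a1 lie high on both axes and Scgb1a1 low on both.

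The genes with the smallest p among those higher after OA included several genes of monocytes. Clec4a1, a C-type lectin receptor of myeloid cells, had levels of 3.04, 3.05 and 3.07 in OA and −0.95 and 0.97 in serum. The 3 OA arrays were nearly equal and both serum arrays lay below them, the first far below the second. The difference was 3.04 ± 0.54 log2 (SE; adjusted p = 0.0190), 8.24-fold, and 2.09 against serum replicate 2 alone. Csf1r had levels of 5.94, 5.99 and 5.93 in OA and 3.12 and 4.07 in serum, again with no overlap. Its difference was 2.36 ± 0.46 (adjusted p = 0.0203), 5.14-fold, and 1.89 without serum replicate 1. The 3 kept Csf1r probes gave differences between 0.36 and 2.36, and the gene is represented by the brightest. Fem1b, an adaptor of a ubiquitin ligase, had levels of 1.44, 1.66 and 1.57 in OA and −0.88 and −0.38 in serum, a difference of 2.19 ± 0.36 (adjusted p = 0.00902).

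Nupr1, a stress-induced chromatin protein, had 1.87, 2.42 and 2.38 in OA and −0.18 and −0.09 in serum. Its serum arrays were nearly equal, and the difference of 2.35 ± 0.45 (adjusted p = 0.0203) was 2.31 without serum replicate 1.

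Patrolling monocyte genes were among those highest after OA relative to serum. Nr4a1, the receptor these cells need (probe at chr15:101105071-101105130 on mm9, as the array files give it), had levels of 4.50, 5.09 and 5.29 in OA and 1.58 and 2.47 in serum. Both serum arrays lay well below the OA arrays, and the difference was 2.93 ± 0.56 (adjusted p = 0.0203), 7.65-fold, and 2.49 without serum replicate 1. Ear2, an eosinophil-associated ribonuclease also made by patrolling monocytes (probe at chr14:44681119-44681178), had 3.52, 4.52 and 4.65 in OA and 0.04 and 1.52 in serum. That was the largest difference among the 10 genes of smallest p that were higher, 3.45 ± 0.65 (adjusted p = 0.0203), 10.9-fold, and 2.71 without serum replicate 1. Apoc2, an apolipoprotein that activates lipoprotein lipase, had 3.54, 4.27 and 4.31 in OA and 1.88 and 1.70 in serum. Here serum replicate 2 was the lower of the serum arrays, and the difference of 2.25 ± 0.42 (adjusted p = 0.0203) became 2.34 without serum replicate 1. Cx3cr1, the fractalkine receptor, was singled out after its values were seen, from the same list. It had 3.29, 3.66 and 3.87 in OA and −0.42 and 1.27 in serum, a difference of 3.18 ± 0.65 (adjusted p = 0.0239), and 2.34 without serum replicate 1. Of the 11 patrolling monocyte genes tested, 6 were called higher and none lower, where 20.5% of all genes were called higher and 2.9% lower. On 8 of the 11, no serum array reached an OA array, where 37.6% of all genes were so placed. The list's median was 1.37 (0.56 over all genes) and 1.09 without serum replicate 1 (0.11 over all genes). The 5 genes not called, named as the exceptions after their values were seen, were Cd36, Itgal, Pglyrp1, Ace and Treml4, with differences of −0.19, 0.31, 0.37, 1.06 and 1.29.

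Klf4, a zinc-finger factor that mouse monocytes need to form, was called as well. It had 1.43, 2.08 and 2.15 in OA and −0.85 and −0.17 in serum. The difference was 2.40 ± 0.48 (adjusted p = 0.0239), 5.29-fold, and 2.06 without serum replicate 1. The promoters of Nr4a1, Klf4 and Cx3cr1 are shown because NR4A1 and KLF4 are known regulators of mouse monocytes and CX3CR1 marks the patrolling subset. Each runs 5′ to 3′ from 250 bases before to 50 after the start in RefSeq (GRCm38.p6), with each GGGGCGGGG or its reverse complement CCCCGCCCC in capitals.
Nr4a1 promoter, chr15:101266596-101266895, plus strand: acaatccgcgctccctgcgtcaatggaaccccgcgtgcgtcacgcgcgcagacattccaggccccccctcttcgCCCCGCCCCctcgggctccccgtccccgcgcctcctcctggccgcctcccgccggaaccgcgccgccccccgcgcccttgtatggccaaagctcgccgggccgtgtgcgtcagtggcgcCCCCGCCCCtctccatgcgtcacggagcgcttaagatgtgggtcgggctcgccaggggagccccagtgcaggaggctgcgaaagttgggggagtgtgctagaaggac
Klf4 promoter, chr4:55532426-55532725, minus strand: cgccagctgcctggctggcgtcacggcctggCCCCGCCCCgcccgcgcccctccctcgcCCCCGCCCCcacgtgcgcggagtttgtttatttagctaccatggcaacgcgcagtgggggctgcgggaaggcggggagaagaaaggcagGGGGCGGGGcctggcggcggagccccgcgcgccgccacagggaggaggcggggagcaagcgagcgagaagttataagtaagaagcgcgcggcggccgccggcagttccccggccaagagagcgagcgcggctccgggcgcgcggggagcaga
Cx3cr1 promoter, chr9:120068247-120068546, minus strand: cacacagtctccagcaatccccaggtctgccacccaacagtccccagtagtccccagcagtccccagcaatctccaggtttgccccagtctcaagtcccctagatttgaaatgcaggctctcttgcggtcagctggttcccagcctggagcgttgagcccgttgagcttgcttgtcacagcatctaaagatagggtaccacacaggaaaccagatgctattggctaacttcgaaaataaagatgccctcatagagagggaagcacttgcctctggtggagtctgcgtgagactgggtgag
The Nr4a1 window holds 2 matches, that of Klf4 holds 3 and that of Cx3cr1 holds none. The windows of Ear2, Apoc2, Fem1b, Clec4a1 and Nupr1, searched but not printed, hold none either. On either strand, 11.5% of 32544 mouse promoter windows of the same length hold the motif. TGACGTCA, GAGGAAGT and TTGCGCAA were also searched on both strands, are in none of these 3 windows, and are in 1.80%, 3.11% and 0.184% of all windows.

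**Figure D3:**
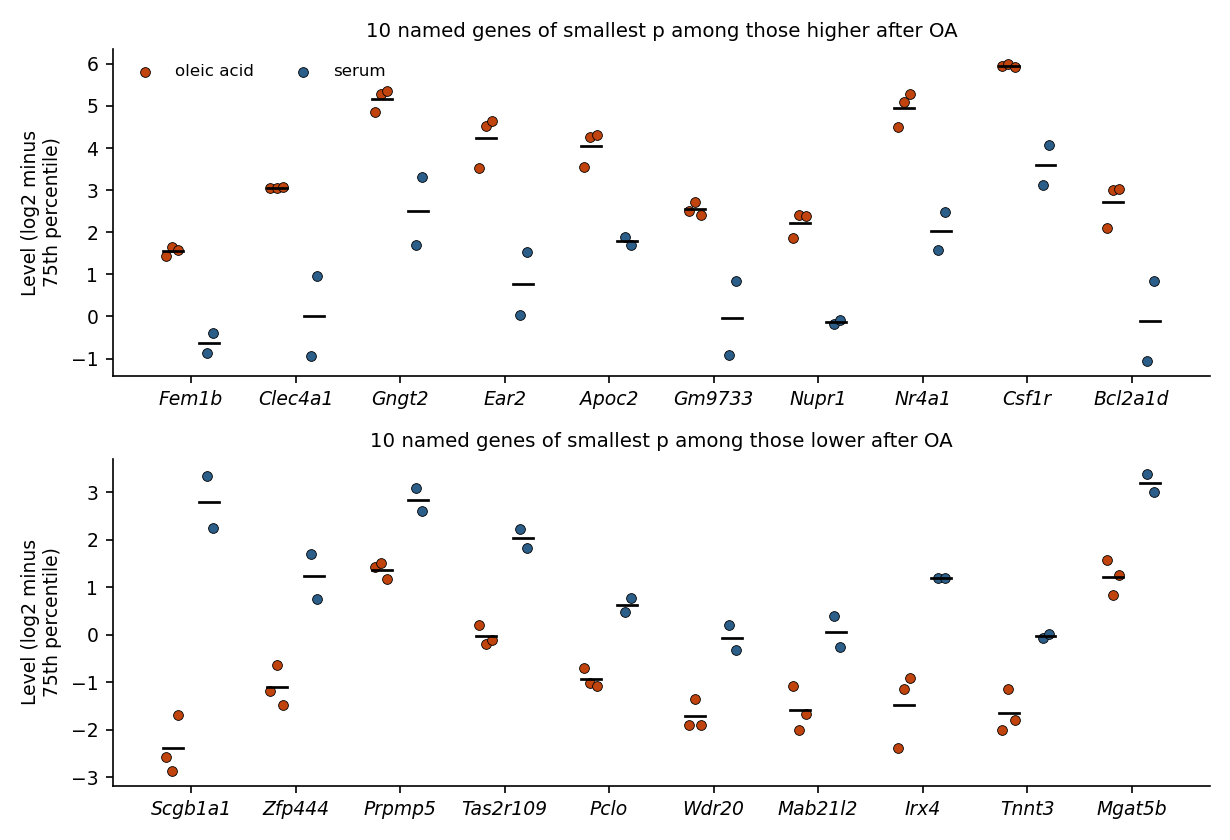
Levels (log2 minus the 75th percentile) on the 3 OA arrays (left of each pair) and the 2 serum arrays of 24 h for the 10 named genes of smallest p in each direction, with bars at group means. No serum point overlaps the OA points of the same gene, and for Scgb1a1 the OA points lie between −2.86 and −1.68 and the serum points at 3.35 and 2.24.

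Classical monocyte genes were also higher, with more weight on serum replicate 1. Fn1, which encodes fibronectin, had 4.64, 4.44 and 3.93 in OA and 0.23 and 2.87 in serum, a difference of 2.79 ± 0.65 (adjusted p = 0.0302). Against serum replicate 2 alone it was 1.47. Ccr2, the receptor for monocyte exit from marrow, had 2.08, 2.19 and 1.78 in OA and −0.80 and 0.61 in serum, a difference of 2.11 ± 0.50 (adjusted p = 0.0302). Against serum replicate 2 alone it was 1.41. Of 11 classical monocyte genes tested, 8 were called higher and none lower, where 20.5% of all genes were called higher. The median was 1.80 (0.56 over all genes), or 0.88 without serum replicate 1 (0.11 over all genes). The 3 genes not called, named after their values were seen, were Lyz2, F13a1 and Vcan, with differences of 1.61, 0.84 and −0.54.

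The other times gave each side of the comparison a range. For Csf1r, the 14 OA arrays of other times ran from 2.97 to 6.17 with a median of 5.67, and the 11 serum arrays from 4.36 to 6.22 with a median of 5.62, above both serum arrays of 24 h. Nr4a1 ran from 2.15 to 5.69 on those OA arrays and from 2.99 to 4.99 on those serum arrays. For both genes the 3 OA arrays of 24 h lay within the range of other OA arrays, and the serum arrays of 24 h lay below all other serum arrays. For Cx3cr1 only serum replicate 1 lay below all other serum arrays, which ran from 0.60 to 3.28. Its OA replicates 2 and 3 of 24 h (3.66 and 3.87) lay above all other OA arrays, which ran from −0.40 to 3.30. A placing of both serum arrays below all other serum arrays was found for 4 of the 11 patrolling monocyte genes, 1 of the 11 classical ones and 255 of all 12602 genes (2.02%). Scaled to the median of always-detected probes it was found for 3, 1 and 287 (2.28%). All 3 OA arrays lay above every other OA array for none of these 22 list entries, against 91 genes of all (0.722%). The mean level of the patrolling list was 2.85, 3.30 and 3.43 in OA and 1.33 and 1.86 in serum at 24 h. At other times it ran from 1.30 to 3.46 in OA and from 2.01 to 3.26 in serum. The lowest OA array in Csf1r, Nr4a1 and Cx3cr1 (2.97, 2.15 and −0.40) was replicate 2 of 4 h, the array with the highest intergenic signal of all (−3.22). On that array and on serum replicate 1, low levels of these 3 genes stood beside a high intergenic signal. Serum replicate 3 of 1.5 h had an intergenic signal of −4.96, with levels of 5.62, 4.24 and 2.40. OA replicate 1 of 3 h had −5.21, with levels of 6.17, 5.62 and 3.21. Serum replicate 1 of 1 h had −5.24, with lower levels of 4.36, 3.04 and 1.53. Serum replicate 2 of 3 h had −5.29, with lower levels of 4.69, 2.99 and 0.60. With the intergenic signal as a covariate no gene was called at 24 h, and the smallest adjusted p in limma was 0.522. Under that covariate the all-gene median was −0.05. The median of the patrolling list went from 1.37 to 1.27 and that of the classical list from 1.80 to 0.56. Ear2, Apoc2, Nr4a1 and Csf1r, picked from the genes of smallest p and not called, had differences of 2.24, 2.02, 1.53 and 1.45. The part of the intergenic signal in the result was not tested further.

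**Figure D4:**
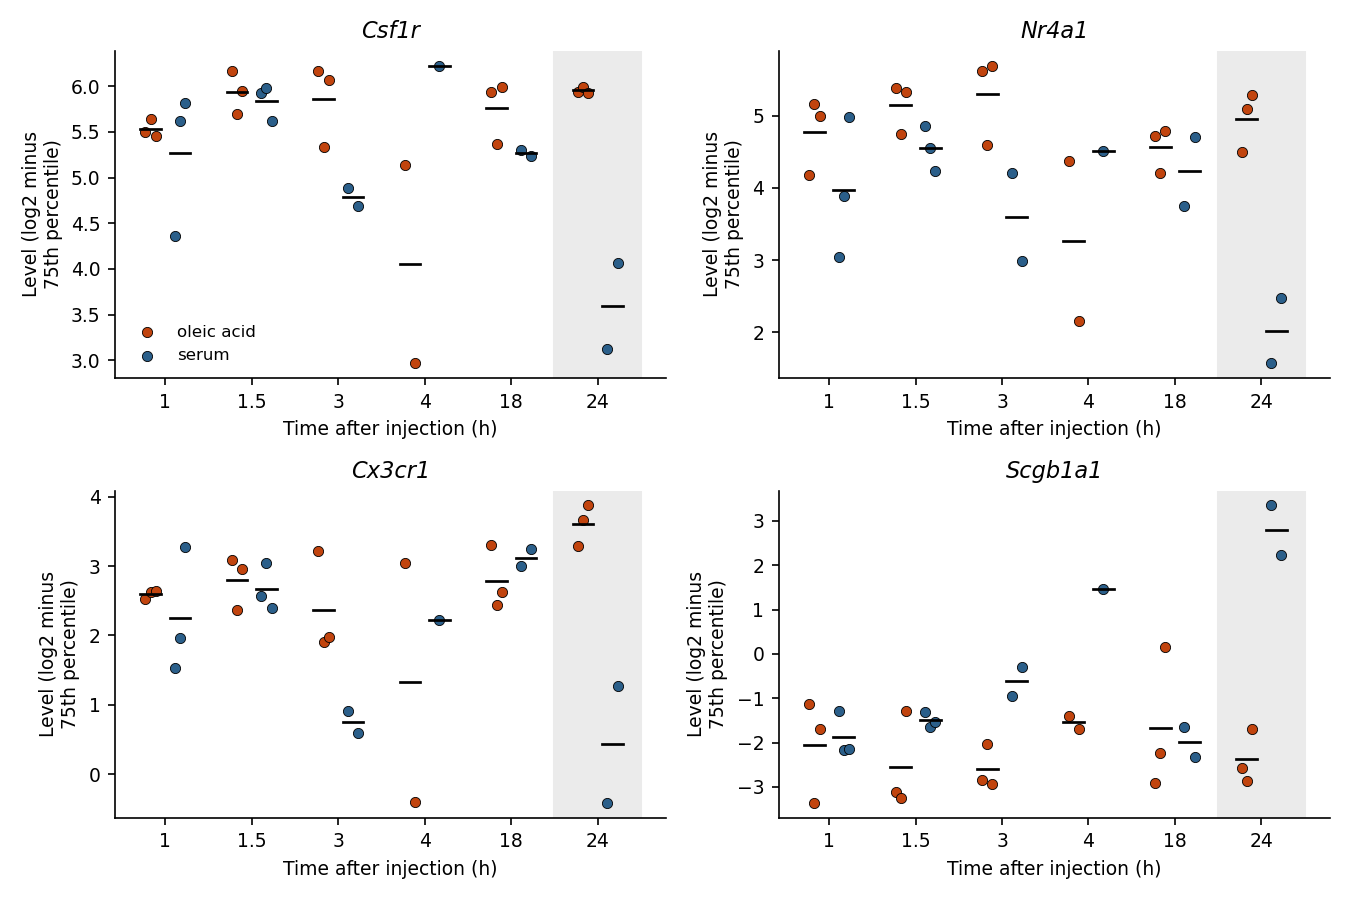
Levels (log2 minus the 75th percentile) of Csf1r, Nr4a1, Cx3cr1 and Scgb1a1 on each array by time after injection in hours, with OA left of serum, bars at group means and 24 h shaded. The serum arrays of 24 h lie below the serum arrays of other times for Csf1r and Nr4a1, and above them for Scgb1a1.

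A stricter description kept genes whose OA mean lay more than 1.5 log2 beyond the all-gene median on each serum array taken alone, a limit chosen after the values were seen. It held for 17 genes above (0.135% of those tested) and 156 below (1.24%), so most of the genes it kept were lower after OA. Many of those below have no gene symbol. The largest differences below among genes with a symbol were those of Scgb1a1, Ffar2, Matn4 and Irx4 (−5.17, −3.33, −2.95 and −2.68). The 16 above with a symbol were Ear2, Cx3cr1, Clec4a1, Rnase2a, S100a4, Ear10, Nr4a1, Bcl2a1d, Gngt2, Shc4, Gm9733, Vapb, Klf4, Csf1r, Mefv and Sirpb1b. Ear2, Ear10 and Rnase2a are near-identical ribonuclease genes, so their probes may share transcripts. Gngt2, a G protein gamma subunit, had 4.87, 5.28 and 5.35 in OA and 1.70 and 3.32 in serum (difference 2.65 ± 0.48, adjusted p = 0.0203). Bcl2a1d, of the BCL2A1 survival family, had 2.10, 3.01 and 3.03 in OA and −1.06 and 0.84 in serum (difference 2.83 ± 0.56, adjusted p = 0.0239). Their differences without serum replicate 1 were 1.84 and 1.88.

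Sensors of the inflammasome, which cleaves pro-interleukin-1, were in part higher. Of 14 NLR, NAIP and related genes on the array 7 passed the filter, and 4 of these were called higher, where 20.5% of all genes were. In the 7 that passed, every OA array lay above both serum arrays, as in 37.6% of all genes. Of the 7 outside the filter, Nlrp3, the best known sensor of the family, was not well above background on any of the 5 arrays. The median was 1.54, and 0.98 without serum replicate 1. Casp1, the protease of the complex, had 2.38, 2.66 and 2.70 in OA and 0.21 and 1.43 in serum (difference 1.76 ± 0.41, adjusted p = 0.0302). Mefv, which encodes the sensor pyrin, had 1.91, 2.34 and 1.97 in OA and −0.64 and 0.33 in serum (2.23 ± 0.52, adjusted p = 0.0302). For Naip2, a NAIP family sensor of bacterial proteins, the values were 1.46, 1.93 and 1.56 in OA and −0.52 and 0.65 in serum (1.58 ± 0.43, adjusted p = 0.0303). The 3 differences without serum replicate 1 were 1.15, 1.74 and 1.00. Both serum arrays lay below all other serum arrays for 2 of the 7 genes, Mefv among them, and for 2.02% of all genes. The mean level of the list was 3.25, 3.40 and 3.31 in OA and 1.40 and 2.51 in serum.

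Toll-like receptor genes were called in both directions and Fc receptor genes in 1. Tlr13, a sensor of bacterial ribosomal RNA, had 2.33, 2.88 and 2.67 in OA and 0.41 and 1.01 in serum (1.92 ± 0.51, adjusted p = 0.0303). Tlr7, a sensor of single-stranded RNA, was lower, with 1.97, 1.15 and 1.47 in OA and 3.02 and 2.83 in serum (−1.39 ± 0.41, adjusted p = 0.0330). The groups did not overlap in either gene, and the differences without serum replicate 1 were 1.62 and −1.30. Myd88, the adaptor of most Toll-like receptors, had a difference of 1.19 ± 0.38 (adjusted p = 0.0360), and 0.66 without serum replicate 1. Of 9 Toll-like receptor and adaptor genes, 5 were called higher and 1 lower, where 20.5% and 2.9% of all genes were. Fcgr4, an activating Fc receptor of patrolling monocytes and neutrophils, had 1.11, 2.73 and 2.50 in OA and 0.28 and −0.01 in serum (1.98 ± 0.67, adjusted p = 0.0403), and its first OA array was the low one. Fcgr2b, the inhibitory Fc receptor, had a difference of 1.32 ± 0.41 (adjusted p = 0.0351), and 0.59 without serum replicate 1. Of 6 Fc receptor and complement genes, 2 were called, both higher, where 20.5% of all genes were called higher.

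Scgb1a1, the club cell secretoglobin of airway epithelium, was the gene of smallest p. Its levels (probe at chr19:9158197-9158256 on mm9) were −2.57, −2.86 and −1.68 in OA and 3.35 and 2.24 in serum. Both serum arrays were high and the groups lay far apart. The difference was −5.17 ± 0.69 (adjusted p = 0.000915), and −4.61 without serum replicate 1 (adjusted p = 0.129). On the 11 serum arrays of other times it ran from −2.33 to 1.45 with a median of −1.54, so the serum arrays of 24 h were the high ones. Sftpc, the surfactant protein C of alveolar type II cells, was well above background on no OA array (−5.51, −4.82 and −4.48) and on both serum arrays (2.50 and 1.61), and was at least 125-fold lower after OA. The bound sets the mean of the serum arrays against, per OA array, the higher of its own signal and the lowest signal well above background. Of 15 lung epithelium and endothelium genes on the array, 4 passed on all 5 arrays. Their mean level was 2.51, 2.57 and 2.46 in OA and 4.22 and 4.42 in serum, against 2.22 to 4.11 on the other serum arrays. Of these 4, Scgb1a1 was called lower, where 2.9% of all genes were, and the differences ran from −5.17 for Scgb1a1 to −0.13. Kdr, a VEGF receptor of endothelium, had a difference of −1.16 ± 0.55 (adjusted p = 0.104). Ager, outside the filter, was well above background on 2 OA arrays and 1 serum array. Its levels were −2.54, −2.57 and −3.97 in OA and −1.03 and −1.53 in serum. The epithelial genes Scgb3a2 and Sftpa1 were not well above background on any of the 5 arrays. The part of lung RNA in the serum samples was not tested.

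Other named genes were lower after OA as well. Irx4, a homeobox gene, had −2.38, −1.14 and −0.91 in OA and 1.2 and 1.21 in serum (−2.68 ± 0.65, adjusted p = 0.0303). Zfp444, a zinc-finger gene, had −1.19, −0.63 and −1.48 in OA and 1.71 and 0.76 in serum (−2.33 ± 0.47, adjusted p = 0.0239), while its other kept probe gave −0.19. Tas2r109, a bitter taste receptor, had 0.20, −0.19 and −0.10 in OA and 2.24 and 1.83 in serum (−2.06 ± 0.42, adjusted p = 0.0239). Mgat5b, Wdr20, Mab21l2, Tnnt3, Pclo and Prpmp5 had differences between −1.97 and −1.48. For Wdr20 a brighter probe that did not pass on all 5 arrays gave 1.52, so its direction rests on the probe. Of the 1380 long intergenic RNAs, 131 were lower (9.49%) and 58 higher (4.20%), against 173 (1.91%) lower and 2183 (24.1%) higher among genes with a symbol. By mean level over the arrays, the dimmest of 3 equal parts of the genes had a median difference of −0.16, and the others 0.73 and 0.80. The intergenic signal was higher on both serum arrays than on the OA arrays, and its part in the lower calls was not tested.

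B cell genes were in part called higher, and those named here, except Pax5, had smaller differences without serum replicate 1. Ms4a1, which encodes the B cell antigen CD20, had 5.21, 5.54 and 5.76 in OA and 3.28 and 4.83 in serum (1.45 ± 0.46, adjusted p = 0.0357). Cr2, the complement receptor of mature B cells, had 3.21, 3.79 and 3.85 in OA and 2.05 and 2.67 in serum (1.25 ± 0.34, adjusted p = 0.0303). Pax5, the factor that fixes B cell identity, had 0.48, 0.30 and 0.22 in OA and −0.64 and −0.82 in serum (1.06 ± 0.31, adjusted p = 0.0329). Without serum replicate 1 the differences were 0.68, 0.94 and 1.15, while the all-gene median fell from 0.56 to 0.11. Of 14 B cell genes, 8 were called higher, where 20.5% of all genes were, and the median of 1.17 became 0.53 without serum replicate 1. Ebf1, a partner factor of Pax5 in B cells, had a difference of 1.36 ± 0.39 (adjusted p = 0.0327), and 0.75 without serum replicate 1. Mzb1, a chaperone of antibody-making B cells, had 1.34 ± 0.44 (adjusted p = 0.0379), and 0.53 without it.

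The antigen presentation and dendritic cell genes named here also had smaller differences without serum replicate 1. Ctss, the protease cathepsin S that trims the invariant chain, had 5.80, 6.03 and 6.04 in OA and 2.71 and 4.68 in serum (2.27 ± 0.50, adjusted p = 0.0295), and 1.28 without serum replicate 1. H2-DMb1, a peptide loader of MHC class II, had a difference of 1.34 ± 0.45 (adjusted p = 0.0399), and 0.55 without it. Of 10 class II genes 4 were called higher, where 20.5% of all genes were, and the median of 0.99 became 0.15 without serum replicate 1. Irf8, a factor of dendritic cells and monocytes, had a difference of 1.36 ± 0.42 (adjusted p = 0.0347), and 0.53 without it, and Tcf4, a factor of plasmacytoid dendritic cells, had 1.69 ± 0.42 (adjusted p = 0.0303), and 1.1 without it. Of 8 dendritic cell genes 3 were called higher, against the same share of all genes.

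T and natural killer cell genes were mostly not called. Cd3g, a chain of the T cell receptor complex, had 4.67, 4.82 and 4.86 in OA and 3.28 and 4.58 in serum (0.85 ± 0.35, adjusted p = 0.0695), and 0.20 without serum replicate 1. Cd8a had 2.74, 2.48 and 2.51 in OA and 1.11 and 2.46 in serum (0.79 ± 0.37, adjusted p = 0.101), and 0.12 without it. None of the 15 T cell genes was called by limma, where 20.5% of all genes were called higher and 2.9% lower. In limma 2 had an unadjusted p under 0.05, both higher, where 37.5% of all genes were higher and 7.22% lower. The list's median was 0.53, near the 0.56 of all genes. Tbx21, the transcription factor T-bet, had 2.20, 2.62 and 2.52 in OA and 0.84 and 1.44 in serum (1.31 ± 0.42, adjusted p = 0.0360), and 1.01 without serum replicate 1. It was the 1 gene called of 12 natural killer and cytotoxic genes, where 20.5% of all genes were called higher.

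Genes of mature neutrophils were not called. S100a8, an alarmin abundant in neutrophils, had 6.42, 8.32 and 7.66 in OA and 6.84 and 7.20 in serum. The OA arrays lay on both sides of the serum arrays, and the difference of 0.45 ± 0.75 (adjusted p = 0.644) changed sign under 3 other scalings. None of the 16 mature neutrophil genes was called by limma, and none had an unadjusted p under 0.05. Among all genes 20.5% were called higher and 2.9% lower, or 37.5% and 7.22% at that unadjusted limit. The list's median was 0.20, where all genes had 0.56. Trem1, a receptor that amplifies neutrophil and monocyte activation, had the smallest p of that list (0.87 ± 0.53, adjusted p = 0.195). Among granule genes of immature neutrophils, Ngp had 3.30, 0.50 and −0.13 in OA and 2.58 and 3.36 in serum (−1.75 ± 0.71, adjusted p = 0.0663), and Camp had 4.68, 2.17 and 2.52 in OA and 3.73 and 4.40 in serum (−0.94 ± 0.69, adjusted p = 0.280). In both, OA replicate 1 was the high OA array. Elane, neutrophil elastase, was called lower (−1.17 ± 0.43, adjusted p = 0.0498), and −0.81 without serum replicate 1. Chil3, a chitinase-like protein of both granulocyte precursors and monocytes, was called higher (1.80 ± 0.61, adjusted p = 0.0407), and 0.88 without it.

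None of the 15 platelet and 15 erythroid genes was called by limma, and none had an unadjusted p under 0.05. Among all genes 20.5% were called higher and 2.9% lower, or 37.5% and 7.22% at that unadjusted limit. Gp1bb, a chain of the platelet receptor for von Willebrand factor, had 3.86, 4.46 and 3.33 in OA and 3.83 and 5.24 in serum (−0.66 ± 0.64, adjusted p = 0.416). The platelet median of 0.03 became −0.71 without serum replicate 1, as that array was the low serum array. Alas2, the first enzyme of haem synthesis in red cells, had 10.59, 9.17 and 10.47 in OA and 12.06 and 10.33 in serum (−1.12 ± 0.66, adjusted p = 0.181). For the erythroid list the median of −0.33 became 0.49 without serum replicate 1, which was the high serum array.

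**Figure D5:**
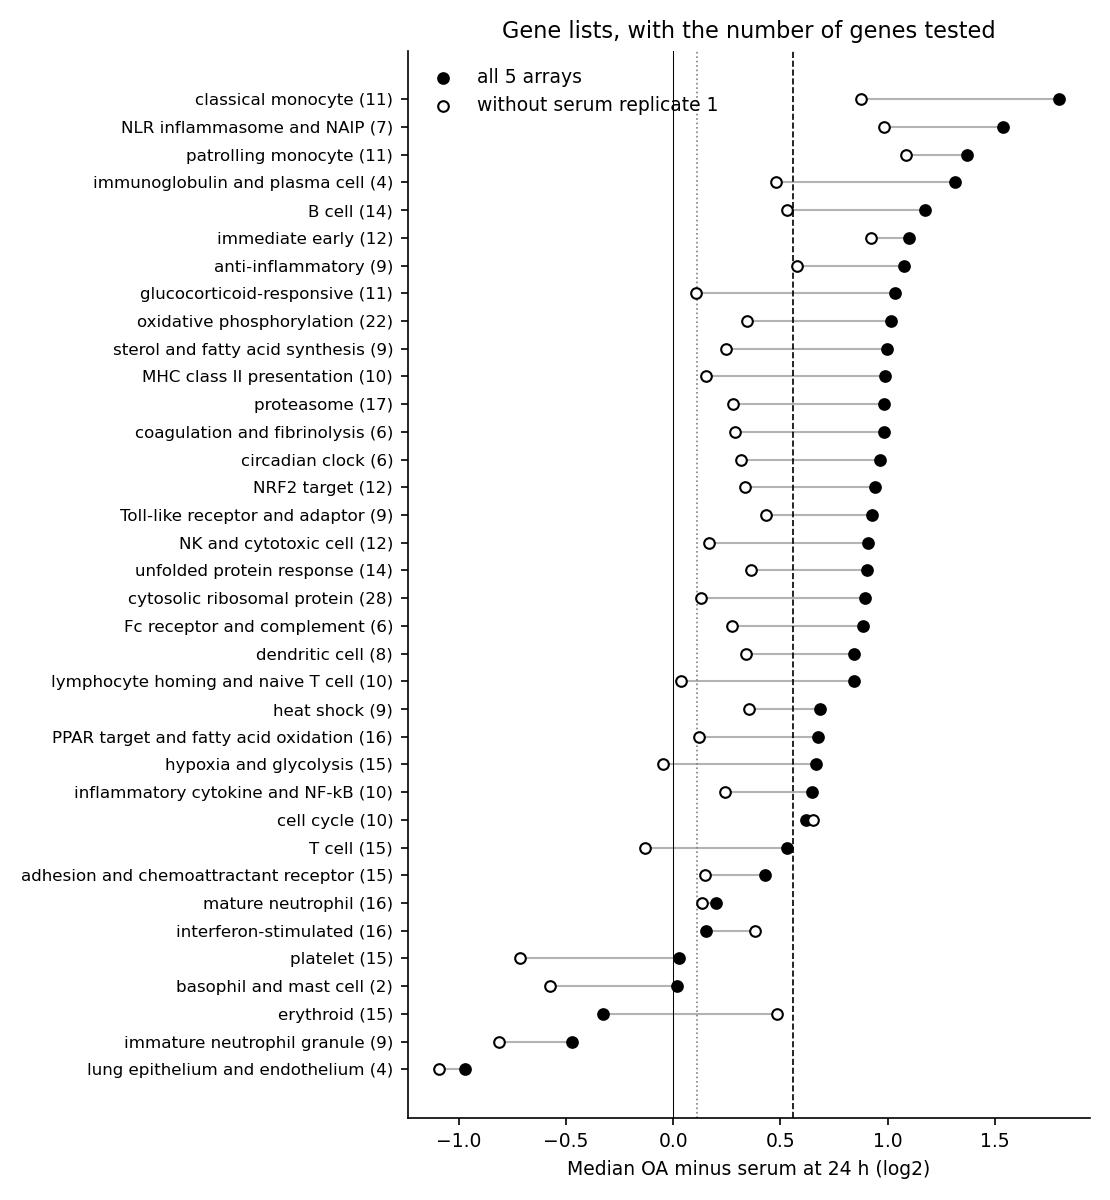
Median OA minus serum difference at 24 h (x axis, log2) of each gene list, with the number of genes tested in brackets, over all 5 arrays (filled) and without serum replicate 1 (open). The dashed line is the median of all genes over all 5 arrays (0.56) and the dotted line that without serum replicate 1 (0.11). Most lists lie right of these lines in both settings, among them the monocyte, inflammasome, immediate early, B cell and oxidative phosphorylation lists. Lung, immature neutrophil, platelet, basophil and T cell lists lie left of them in both.

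Immediate early genes, induced within minutes of a stimulus, had 4 of 12 called higher, where 20.5% of all genes were, and a median of 1.1, or 0.92 without serum replicate 1. Besides Klf4, Dusp2 (a phosphatase of MAP kinases) had 6.08, 5.86 and 5.93 in OA and 3.18 and 5.07 in serum (1.83 ± 0.49, adjusted p = 0.0303), and 0.88 without serum replicate 1. Klf6, another zinc-finger factor, had 4.89, 5.43 and 5.50 in OA and 3.19 and 4.31 in serum (1.52 ± 0.41, adjusted p = 0.0303), and 0.96 without it. Fos, a subunit of AP-1, had 2.68, 3.82 and 3.82 in OA and 1.5 and 1.95 in serum with no overlap, but a difference of 1.72 ± 0.69 did not pass (adjusted p = 0.0647).

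Inflammatory cytokine and NF-kB genes were called about as often as all genes. Il1b, the pro-form of interleukin-1 beta, had 1.57, 4.49 and 4.43 in OA and 1.89 and 2.27 in serum. OA replicate 1 lay below both serum arrays and the other OA arrays above them, and the difference was 1.42 ± 0.97 (adjusted p = 0.251). Of 10 such genes 2 were called, both higher, near the 20.5% of all genes. They were Cd40, a costimulatory receptor (1.49 ± 0.39, adjusted p = 0.0303), and Tnfaip3, a brake on NF-kB (1.62 ± 0.50, adjusted p = 0.0347), with 0.84 and 0.76 without serum replicate 1. Tnfrsf1b, a TNF receptor counted among anti-inflammatory genes, had 0.71, 1.61 and 1.62 in OA and −1.18 and −0.35 in serum (2.08 ± 0.44, adjusted p = 0.0247), and 1.66 without it.

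Some interferon-stimulated genes were higher. Oas1a, an activator of RNase L, had 3.60, 3.51 and 3.71 in OA and 1.26 and 2.20 in serum (1.88 ± 0.51, adjusted p = 0.0303). Oas2, of the same family, had 2.90, 2.61 and 2.38 in OA and 0.70 and 1.37 in serum (1.59 ± 0.46, adjusted p = 0.0328). Stat2, which carries interferon signals to the nucleus, had 2.47, 2.51 and 2.45 in OA and 0.74 and 1.68 in serum (1.26 ± 0.38, adjusted p = 0.0338). Without serum replicate 1 the differences were 1.41, 1.26 and 0.80. In all, 4 of 16 genes were called higher and none lower, near the 20.5% of all genes. The median of 0.16 lay below the 0.56 of all genes, and without serum replicate 1 the median of 0.38 lay above the 0.11 of all genes, with 14 of 16 genes above 0.

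Genes of hormone, clock and lipid pathways are read against the 20.5% of all genes called higher. Sgk1, a kinase induced by glucocorticoids, was the 1 gene called of 11 glucocorticoid-responsive genes (1.37 ± 0.48, adjusted p = 0.0427), and had 0.55 without serum replicate 1. Tsc22d3, another glucocorticoid-induced gene, had 5.93, 6.00 and 5.91 in OA and 3.52 and 5.84 in serum (1.26 ± 0.49, adjusted p = 0.0571), and 0.11 without it. The clock genes Cry2 (1.37 ± 0.41, adjusted p = 0.0335) and Tef (1.23 ± 0.39, adjusted p = 0.0360) were 2 called of 6, with 1.23 and 0.74 without serum replicate 1. Plin2, a coat protein of lipid droplets and a target of fatty acid receptors, had 2.21, 2.12 and 1.80 in OA and −0.39 and 0.54 in serum (1.97 ± 0.49, adjusted p = 0.0303), and 1.5 without serum replicate 1. Cpt2 and Cpt1a, the carnitine transferases of fatty acid import into mitochondria, had differences of 1.40 ± 0.36 (adjusted p = 0.0303) and 1.38 ± 0.45 (adjusted p = 0.0381). Of 16 fatty acid oxidation genes 4 were called, all higher, and 5 had differences below 0, the lowest −1.30. The list median was 0.68 (0.56 over all genes), and 0.12 without serum replicate 1 (0.11 over all genes). Pdk4, of the same list, was not well above background on any of the 5 arrays. Without serum replicate 1, Cpt2 and Cpt1a had 1.11 and 0.55. Of 9 sterol and fatty acid synthesis genes 3 were called higher, among them the desaturase Scd2 and the sterol enzyme Hmgcs1, with 1.47 ± 0.41 and 1.2 ± 0.37 (adjusted p = 0.0303 and 0.0343), and 0.70 and 0.37 without serum replicate 1.

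Part of the stress and housekeeping genes were called, with list medians between 0.68 and 1.01. All genes had a median of 0.56, genes with a symbol 0.66, and the brightest of 3 equal parts of the genes 0.80. Of 14 genes of the unfolded protein response 6 were called higher, with a median of 0.90. Xbp1, a factor of that response and of plasma cells, had 4.10, 3.95 and 3.75 in OA and 1.84 and 2.89 in serum (1.57 ± 0.41, adjusted p = 0.0303), and Hspa5, the chaperone BiP, had 1.37 ± 0.41 (adjusted p = 0.0336). Of 9 heat shock genes 4 were called higher, with Dnajb1 at 1.41 ± 0.35 and Hspe1 at 1.63 ± 0.42 (adjusted p = 0.0303 for both). Nfe2l2, which encodes the oxidative stress factor NRF2, had 1.47 ± 0.44 (adjusted p = 0.0338) among 3 genes called of 12. Without serum replicate 1 these 5 genes had 1.04, 0.67, 0.73, 0.76 and 0.91. Of 28 cytosolic ribosomal protein genes 6 were called higher, of 22 oxidative phosphorylation genes 11 and of 17 proteasome genes 7, with none lower. The ribosomal share and that of the NRF2 list lie near the 20.5% of all genes. The ribosomal, oxidative phosphorylation and proteasome medians were 0.89, 1.01 and 0.98. Without serum replicate 1 they were 0.13, 0.35 and 0.28, where the brightest part of the genes had 0.19. Psma5, a proteasome core subunit, had 3.56, 3.74 and 3.72 in OA and 2.00 and 2.57 in serum (1.39 ± 0.34, adjusted p = 0.0303), and 1.1 without it.

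The OA effect at 24 h was then set against that at 18 h (3 OA and 2 serum arrays). No gene passed in limma, where 2505 genes (19.9%) were higher and 313 (2.48%) lower at an unadjusted p under 0.05. Scgb1a1 came closest, with −2.91, −2.23 and 0.15 in OA and −1.64 and −2.33 in serum at 18 h, and its effect at 24 h minus that at 18 h was −5.49 ± 0.98 (adjusted p = 0.0934). Csf1r had 5.93, 5.36 and 5.99 in OA and 5.30 and 5.24 in serum at 18 h, and the effects differed by 1.87 ± 0.65 (adjusted p = 0.214). Fem1b and Rbm25, an RNA-binding splicing factor, had 2.48 ± 0.51 and 2.19 ± 0.52 (adjusted p = 0.214 for both). Against the mean effect of the 5 other times, no gene passed in limma either, with 4213 (33.4%) higher and 397 (3.15%) lower at an unadjusted p under 0.05. Fem1b had 2.14 ± 0.40 (adjusted p = 0.0783), Scgb1a1 −3.99 ± 0.76 (adjusted p = 0.0833) and Csf1r 2.41 ± 0.50 (adjusted p = 0.0894). Without serum replicate 2 of 24 h, which leaves replicate 1 alone in its group, 5302 and 6338 genes passed in these contrasts.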

How the data were processed

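Per the labels, each sample is a 1-colour (Cy3) Agilent array, read with Feature Extraction 10.5.1.1 per the submitters' processing notes. The intensity used is the processed signal the authors deposited, background-subtracted by the scanner software per the file headers. Here control and outlier spots were left out and log2 values minus each array's 75th percentile were taken from that deposited signal. The authors' deposited log2 value table served as an alternative. Genes were named through RefSeq (GRCm38.p6), and the brightest of a gene's kept probes, by mean over 30 arrays, stood for it. limma 3.58.1 (R 4.3.3) fitted 12 treatment and time groups on all 30 arrays, after a test on simulated data, and 44 genes lacked 1 value at 24 h. Members and lists were chosen with earlier results of these data known. The named genes are the 10 of smallest p in each direction, those of smallest p in each list, fixed markers and those of smallest p between times. The arrays' number limits the precision, and replicate numbers only name arrays. Alternatives covered scaling, background, filters, probe choice, slide, scan day, replicate block and left-out arrays.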

Additional observations from a re-analysis of the deposited data

Results flagged for a closer look

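Outside the 12602 genes tested, 1027 genes were well above background on all 3 OA arrays and on neither serum array of 24 h, and 213 were so on both serum arrays and on no OA array. Both were looked at because they lie outside the comparison and each has only a bound. Of the 1027, 739 have a symbol and 78 were at least 4-fold higher after OA, with a median bound of 2.02-fold. Hfe, which governs iron uptake, was at least 14.4-fold higher, Adgre4, an adhesion receptor of myeloid cells, at least 11.7-fold, and Cfb, complement factor B, at least 6.13-fold. Of the 213, 94 have a symbol and 211 were at least 4-fold lower after OA, with a median bound of 17.4-fold. The median bounds of the higher and the lower genes cannot be set against each other. The lowest level well above background was −5.69, −5.48 and −4.39 on the OA arrays and −3.64 and −3.63 on the serum arrays. The serum arrays had the higher intergenic signal, and its part in these counts was not tested.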

How the results depend on the processing

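The 2952 genes called at 24 h became 72 with the 5 arrays alone, 5138 with normexp background correction, 1379 scaled to the median of always-detected probes, 7559 with probes detected on at least 3 arrays, 13124 with no filter, 1 with slide as a block, 46 with scan day, 1880 in the authors' table and 0 with the intergenic signal as a covariate (limma, 599 at an unadjusted p under 0.05). Leaving out 1 array gave 1 to 6904, namely 1 without serum replicate 1, 6904 without serum replicate 2, and 49, 1 and 2 without OA replicates 1, 2 and 3. Higher genes made up 87.6% of the calls, against 73.9% with quantile normalization, 69.7% in the authors' table, 43.8% and 25.9% with the wider filters and 78.7% with the replicate block.

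With the replicate block 2868 genes were called at 24 h, and 1 and 2 in the contrasts with 18 h and with the mean of other times. The numbers are no pairing given by the labels. Deviations of arrays with number 1 correlated at 0.25 and with number 2 at 0.47. Slide as a random block, added after seeing the data, gave 2288.

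The contrast with 18 h called 0 genes, 1 each with normexp, both wider filters and scan day, and 2 in the authors' table, and 0 to 5302 with 1 array left out. That with the other times called 0 genes, 1 with normexp, 1 with quantile normalization, 2111 and 3142 with the wider filters, 3 with scan day and 4 in the authors' table, and 0 to 6338 with 1 array left out, the highest without serum replicate 2.

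Wdr20 was 1.52 under both wider filters, through another probe. S100a8 was −0.061 with median scaling, −0.19 with quantile normalization and −0.11 in the authors' table. With the intergenic covariate Cd8a was −0.064 and Tsc22d3 −0.056, and Gp1bb ran from −1.36 to 0.048 with 1 array left out, the highest without serum replicate 2. The causes were not tested. Scgb1a1 kept its direction in 18 alternatives, from −5.72 to −3.09, and its call in 16. The number of serum arrays and their dim probes limit every value.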

Other observations

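List members outside the filter gave bounds only. Atf3, a stress-induced transcription factor, was at least 5.21-fold higher after OA, and Naip6 and Nlrc4, of the inflammasome list, at least 3.19-fold and 2.64-fold. Other members of that list gave no bound. Il18, the pro-form of interleukin-18, had −0.59, −0.59 and −0.62 in OA and −0.44 and −1.19 in serum, and Nlrp1b, a sensor, had −2.68, −2.78 and −0.29 in OA and −0.81 and −1.11 in serum, both with overlap. Nlrp3 had −4.23, −3.03 and −2.43 in OA and −2.44 and −2.58 in serum, and Aim2 and Naip1 were not well above background on either serum array. Hk2, a hexokinase, was at least 3.83-fold higher and Tlr4, the endotoxin receptor, at least 1.46-fold. Cd300e, a receptor of patrolling monocytes, had levels of 1.14, 2.46 and 2.44 in OA and −1.19 and −1.82 in serum, and was well above background on 1 of the serum arrays. Sftpb, surfactant protein B, had −5.58, −5.12 and −4.17 in OA and −1.06 and −1.62 in serum, and was likewise well above background on 1 serum array.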
